A study of Rattus norvegicus with 18 samples.

Results

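The comparison described here set the hearts of spontaneously hypertensive rats (SHR) given QDG against those of SHR given NS. Its members are the 12 libraries, of 18 in the series, whose titles carry the names SHR (replicates 1 to 6) and QDG (replicates 1 to 6). The other 6 libraries came from WKY, the Wistar-Kyoto rat, which is normotensive, and are used below as levels beside the genes described. RNA was extracted from heart tissue, depleted of ribosomal RNA and sequenced. Both groups compared are SHR, so strain does not differ between them, and QDG in place of NS is the labelled difference. The sources used here do not give the meaning of NS and QDG, the dose and length of treatment, the age and sex of the rats or the part of the heart sampled. Nor do they say that the 6 libraries of a group are 6 animals. The spread behind each p-value is therefore that between libraries, and may be technical.

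SHR is an inbred strain selected for high blood pressure. Its heart is widely used as a model of pressure overload, in which the left ventricle thickens, collagen accumulates between the muscle cells and the muscle cells shift their use of fuels and of contractile isoforms. Heart tissue holds muscle cells together with endothelial cells, fibroblasts, smooth muscle cells and immune cells, and a bulk library sums over all of them. In such libraries fewer cells of a type and less RNA per cell cannot be told apart.

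The files gave 37262 genes by identifier, 20360 from Ensembl and 16902 from NONCODE, a catalogue of noncoding transcripts. None of these identifiers was paired with a gene name in the files or in the gene table used here. The genes are therefore described by class, level and behaviour across libraries, with 2 identifiers that rose and 2 that fell. For the same reason the tissue label was not checked against heart markers. Values were read as FPKM (sequenced fragments per unit of gene length, relative to the size of the library), a scale that the files do not name. A gene was tested if it reached 1 FPKM in at least 6 of the 12 libraries, which 16577 genes did (12153 Ensembl and 4424 NONCODE). Differences are on log2(FPKM + 1), a scale that understates the change of genes with low values. The depth of the libraries is unknown in absolute terms. Set against SHR replicate 1, it was estimated at 0.935 to 1.13. The estimate came from the most common ratio of low values between the libraries, sought only among ratios near 1.

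Few genes passed the test between QDG-treated and SHR hearts. Of the 16577 genes tested, 53 passed an adjusted p under 0.05 (limma, Benjamini-Hochberg), which is 0.32% of them. Of these, 36 were higher after QDG (0.217% of genes tested) and 17 were lower (0.103%). The absolute log2 fold changes of the 53 ran from 0.25 to 1.00 with a median of 0.46. In mean FPKM, 22 of them differed by at least 1.5-fold between the groups. Adjusted p-values ran from 0.000544 to 0.0497, with 6 under 0.01. Tested for a change of more than 1.5-fold on log2(FPKM + 1), a different scale, limma called 0 genes at an adjusted p under 0.05. At an unadjusted p under 0.05 it called 8. In the test for any change, 1999 genes (12.1%) had an unadjusted p under 0.05, 1327 of them higher and 672 lower after QDG. After median centring that split was 1135 higher and 1124 lower.

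The count of 53 fell with each of the 12 libraries left out, and each of these fits holds fewer libraries. It fell to 14 without SHR replicate 4, to 18 without QDG replicate 2 and to 19 without QDG replicate 6. It was 21, 24 and 31 without SHR replicates 2, 3 and 6, and 23 and 29 without QDG replicates 4 and 3. It stayed closest to 53 without SHR replicate 5 (44), QDG replicate 1 (45) and QDG replicate 5 (47). Without SHR replicate 1 it was 35, and with no filter on low values it was 11. After median centring of the libraries 41 genes were higher and 29 lower, and after quantile normalization 40 were higher and 30 lower.

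ENSRNOG00000032639 had the largest increase among the genes that passed. It stood at 2.46, 1.57, 3.37, 1.03, 1.82 and 1.82 FPKM in SHR replicates 1 to 6, and at 4.17, 5.21, 3.26, 4.87, 3.63 and 4.96 FPKM in QDG replicates 1 to 6. SHR replicate 3 lay just above QDG replicate 3, and the other values of the groups did not overlap. The means were 2.01 ± 0.812 and 4.35 ± 0.790 FPKM (SD, n = 6 each). On the log2 scale the difference was 0.86 with an SE of 0.16 (limma adjusted p = 0.0388). WKY libraries were at 2.70 ± 0.527 FPKM (SD, n = 6), with a range of 1.98 to 3.49. That range lay mostly within the SHR range of 1.03 to 3.37, and overlapped the QDG range at its lowest value. The call held in 5 of the 23 alternatives that tested the gene (adjusted p from 0.0139 to 1).

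ENSRNOG00000005513 was higher in each QDG library than in any SHR library. SHR replicates 1 to 6 held 12.3, 19.7, 13.3, 16.6, 15.9 and 11.5 FPKM, and QDG replicates 1 to 6 held 21.0, 30.7, 23.4, 31.7, 28.6 and 22.8 FPKM. The mean went from 14.9 ± 3.09 to 26.4 ± 4.53 FPKM (SD, n = 6 each). The log2 fold change was 0.79, with an SE of 0.13 and a 95% interval of 0.50 to 1.08 (limma adjusted p = 0.0345). The lowest QDG value, in replicate 1, was close to the highest SHR value, in replicate 2. WKY libraries stood at 29.0 ± 4.89 FPKM (SD, n = 6), with a range of 24.7 to 36.1 that overlapped the QDG values. The call held in 12 of 24 alternatives.

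NONRATG015814.2, a noncoding gene, had the largest decrease among the genes that passed, and 1 SHR library did not share it. SHR replicates 2 to 6 stood at 19.1, 17.6, 20.8, 19.3 and 18.9 FPKM, whereas SHR replicate 1 stood at 8.38. QDG replicates 1 to 6 were at 8.56, 8.17, 7.20, 8.03, 8.26 and 6.95 FPKM. SHR replicate 1 thus lay inside the QDG range for this gene, and the other 5 SHR libraries were more than 2-fold above it. The means were 17.4 ± 4.52 and 7.86 ± 0.636 FPKM (SD, n = 6 each). Expression thus fell by 1.00 on the log2 scale, with an SE of 0.17 (limma adjusted p = 0.0383), and WKY libraries were at 6.81 ± 0.634 FPKM (SD, n = 6). The call held in 8 of 24 alternatives, and without SHR replicate 1 the log2 fold change was -1.19.

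NONRATG010324.2, a second noncoding gene, was lower in each QDG library than in any SHR library. Its values were 13.6, 11.7, 13.5, 16.2, 14.6 and 13.8 FPKM in SHR replicates 1 to 6 and 9.73, 7.63, 7.32, 6.77, 4.88 and 5.97 FPKM in QDG replicates 1 to 6. The mean fell from 13.9 ± 1.49 to 7.05 ± 1.64 FPKM (SD, n = 6 each). This is a difference of -0.91 on the log2 scale with an SE of 0.12 (limma adjusted p = 0.0094). WKY libraries ranged from 5.93 to 9.53 FPKM, within the QDG range. The call held in 21 of 24 alternatives, the library left out in turn included.

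The smallest p of the comparison belonged to an Ensembl gene with a smaller difference and little spread, singled out after its values were seen. It stood at 6.76 to 7.95 FPKM in SHR and at 4.60 to 4.94 FPKM after QDG. The means were 7.25 ± 0.438 and 4.77 ± 0.115 FPKM (SD, n = 6 each). The difference on the log2 scale was -0.51, with an SE of 0.05 and a 95% interval of -0.62 to -0.41 (limma adjusted p = 0.000544). WKY libraries lay between the groups, at 5.02 to 5.89 FPKM. In QDG the highest and lowest libraries differed by less than 0.4 FPKM. The call held in 23 of 24 alternatives, the exception being the test for a change of more than 1.5-fold.

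**Figure D1:**
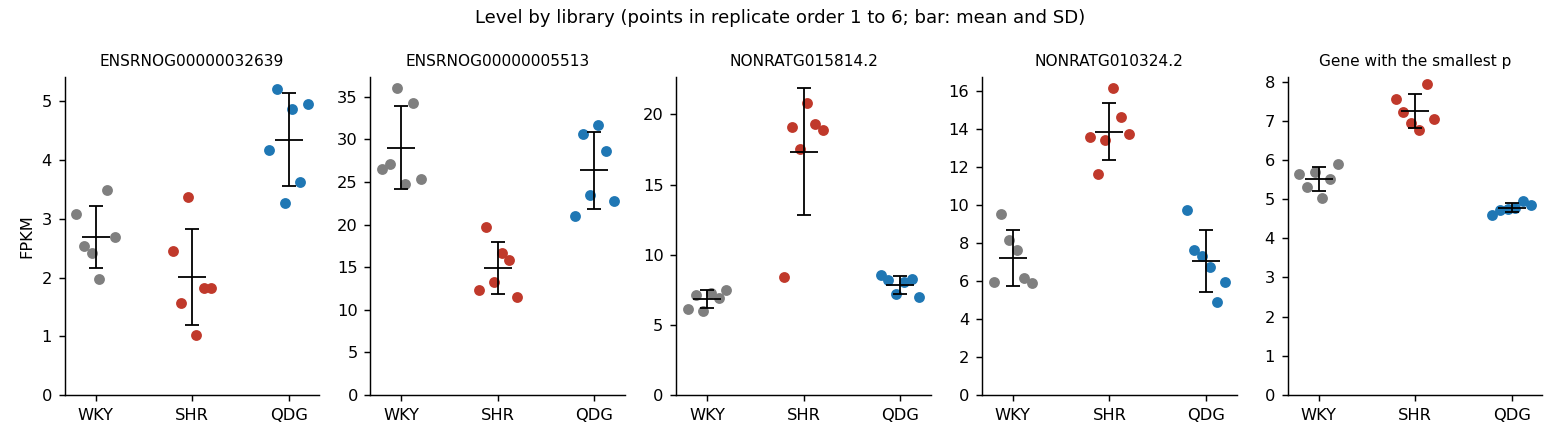
FPKM (y axes, each from 0) of the 4 genes given by identifier and of the gene with the smallest p, in WKY, SHR and QDG-treated SHR; points are the 6 libraries of a group in replicate order and bars the mean and SD. In NONRATG015814.2 SHR replicate 1 sits at 8.38 FPKM among QDG values of 6.95 to 8.56, while in ENSRNOG00000005513 the lowest QDG value (21.0) is above the highest SHR value (19.7).

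Across the 53 genes the groups were mostly apart library by library. The 6 QDG values did not overlap the 6 SHR values in 47 of the 53. Over all genes tested this held for 194, or 1.17%, and since the 53 were called on the same values the count describes them and supports nothing. The 147 genes that were apart without passing the test had a median absolute log2 fold change of 0.23 and adjusted p-values from 0.0502 to 0.491. Of these, 107 were higher after QDG and 40 were lower.

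The genes that passed were also followed through the libraries one at a time. Over the 36 higher genes the median difference from the SHR mean was 0.36 to 0.49 on the log2 scale in the 6 QDG libraries, lowest in replicate 5 and highest in replicate 4. Over the 17 lower genes it was -0.63 to -0.44, lowest in replicate 3 and highest in replicate 4. The SHR libraries stood between -0.08 and 0.05 for the higher genes and between -0.07 and 0.08 for the lower genes. No QDG library was near the SHR level over either set. The genes were chosen on these same libraries, so these medians describe the choice and support nothing.

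**Figure D2:**
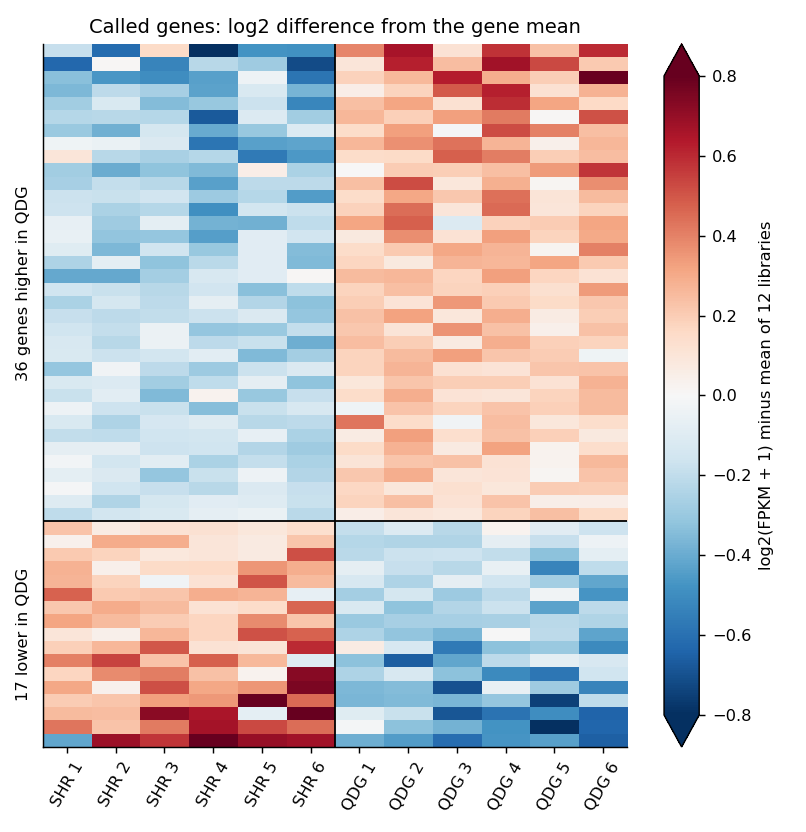
The 53 genes that passed (rows, ordered by fold change) in the 12 libraries (columns); colour is log2(FPKM + 1) minus the gene's mean over the 12 libraries, saturated at 0.8 in either direction. The genes were chosen on these values, so the 4 blocks are given by the choice; the picture shows how far single libraries depart from them, as SHR 1 does in the bottom row, NONRATG015814.2.

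A library that had no part in calling genes gives a further view, although the filter on level had used all 12 libraries. Each library was left out in turn, genes were called on the other 11, and the left-out library was placed against the means of the 2 groups without it. For QDG libraries, the left-out library lay nearer its own group in 66.7% (replicate 1) to 94.4% (replicate 2) of the genes called without it, with a median of 79.2% over the 6 libraries. For SHR libraries the range was 71.0% (replicate 6) to 85.7% (replicates 2 and 4), with a median of 79.6%. Over all genes tested the same share was 49.1% to 59.6% for QDG libraries and 46.7% to 58.2% for SHR libraries. SHR replicate 1 lay nearer the SHR mean in 28 of 35 such genes. Each of the 12 libraries was thus nearer its own group more often in the called genes than over all genes, and the 12 fits share libraries and genes.

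Which genes passed changed with the library left out. Of the 53, 12 passed in all 12 fits with a library left out, and the median gene passed in 3 of them. The 12 comprised 8 higher and 4 lower genes, 8 from Ensembl and 4 from NONCODE, with mean levels of 2.87 to 25.6 FPKM. The ratio of QDG to SHR means was 1.34 to 1.59 in the higher ones and 0.508 to 0.658 in the lower ones. NONRATG010324.2 and the gene with the smallest p are among the 4 lower ones, whereas ENSRNOG00000005513 passed in 3 of the 12 fits, and ENSRNOG00000032639 and NONRATG015814.2 in 1 each. The direction of the 53 genes was the same in every fit that tested them. These fits reuse libraries on which the genes were chosen, so the shared direction supports nothing.

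**Figure D3:**
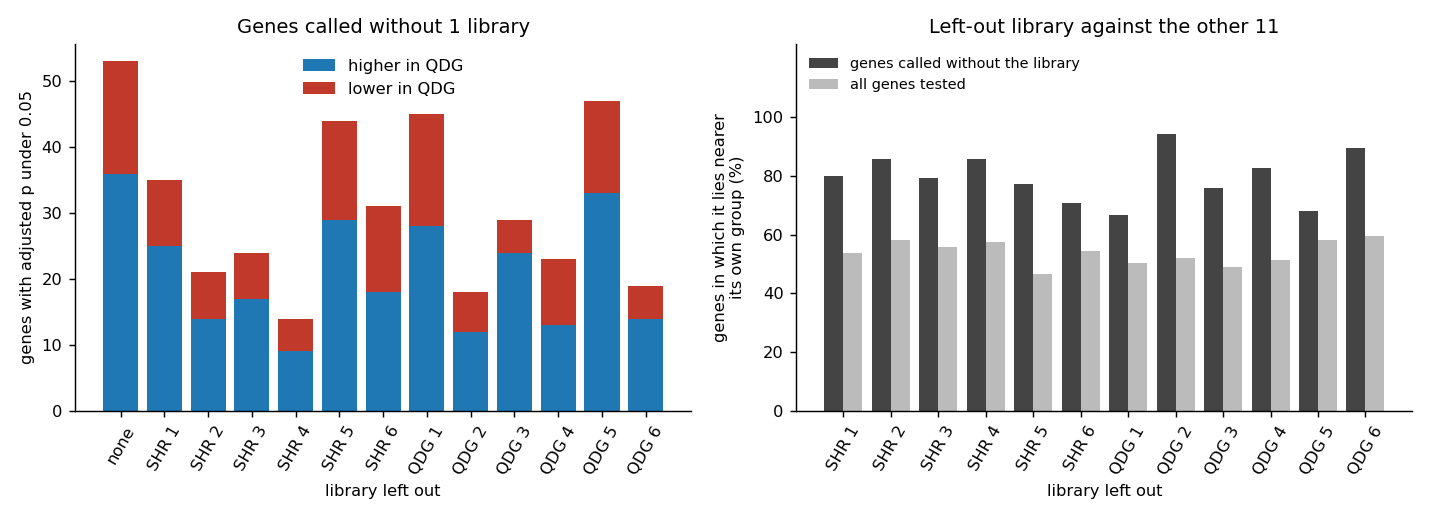
Left, genes with adjusted p under 0.05 (bars, split by direction) with no library left out and with each of the 12 left out; right, the share of genes (%) in which the left-out library lay nearer its own group, for genes called without it (dark) and all genes tested (light). The counts run from 14 to 47 against 53, and the dark bars stand above the light ones in all 12 libraries.

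Genes that rose and genes that fell sat at different levels of expression. The 36 higher genes had a median level of 5.50 FPKM over the 12 libraries, with 18 under 5 FPKM and 2 at 20 FPKM or more. The 17 lower genes had a median of 12.6 FPKM, with 1 under 5 FPKM, 5 at 20 FPKM or more and 1 over 100 FPKM. With the tested genes ordered by level and divided into 5 bins, the lowest bin (up to 1.99 FPKM) held 4 higher and 0 lower genes. Among these was a gene with a mean of 0.942 FPKM, which met the filter only through its QDG libraries. The second bin held 11 and 0, the third 8 and 6, while bin 4 held 9 and 4, and the highest bin (16.9 FPKM and above) 4 and 7. At an unadjusted p under 0.05, the counts with limma were 247 higher and 73 lower in the lowest bin and 226 higher and 187 lower in the highest. The difference between bins was not tested, and genes are not independent replicates.

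The median log2 fold change was 0.04 in the lowest bin, 0.01 in the highest and 0.02 over all genes tested. After median centring the called genes in the lowest bin were 3 higher and 1 lower, and in the highest 5 higher and 11 lower. After quantile normalization they were 4 and 1 in the lowest bin, and 5 and 13 in the highest. At the unadjusted p, quantile normalization gave 167 higher and 156 lower in the lowest bin and 256 and 231 in the highest. Median centring gave 232 higher and 118 lower in the lowest bin and 152 and 284 in the highest. The share of higher genes at that p in the lowest bin thus went from 77.2% to 51.7% with quantile normalization and to 66.3% with median centring, and it was 61.0% without QDG replicate 4. In the highest bin it went from 54.7% to 52.6% and 34.9% under these scalings, so the difference between bins depends on the scaling. QDG replicate 4 had the highest median level of the 12 libraries, 2.80 on log2(FPKM + 1) against 2.65 to 2.75 in the others, and its part in this pattern beyond these values was not tested.

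**Figure D4:**
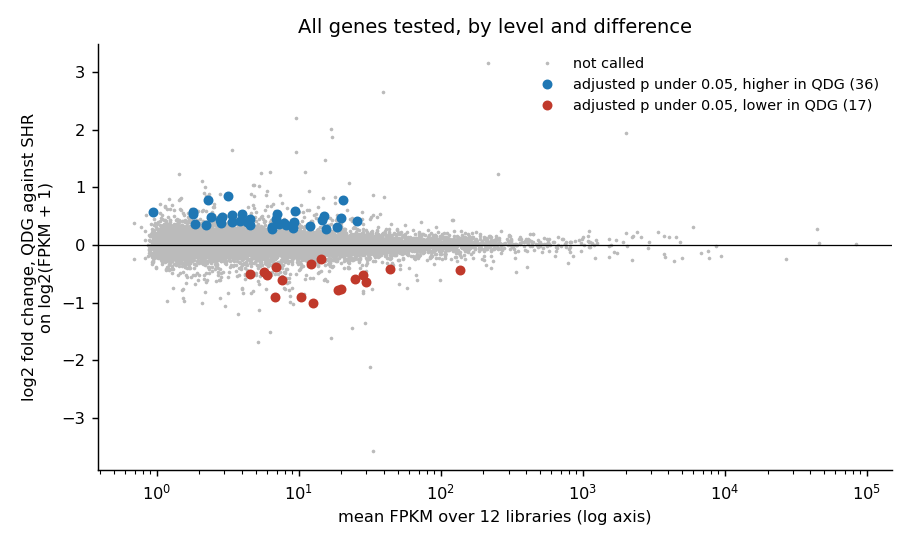
Log2 fold change of QDG against SHR on log2(FPKM + 1) (y axis) by mean FPKM over the 12 libraries (x axis, log scale) for the 16577 genes tested; blue and red points are the 36 higher and 17 lower genes that passed. Genes that rose reach down to 0.942 FPKM, the lowest gene that fell is at 4.54 FPKM, and the widest differences in either direction are grey. The gene at 0.942 FPKM stood at 0.320 to 0.742 FPKM in SHR and at 1.06 to 1.85 FPKM in QDG. It met the filter on level only through its QDG libraries.

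Both gene classes took part. Among Ensembl genes 31 were higher and 12 lower (43 of 12153, 0.354%), and among NONCODE genes 5 were higher and 5 lower (10 of 4424, 0.226%). NONCODE genes were measured with less precision, with a median SE of 0.11 against 0.07 for Ensembl genes, and at a lower median level (2.51 against 7.37 FPKM). The 5 lower NONCODE genes had ratios of QDG to SHR means between 0.453 and 0.655, and the 12 lower Ensembl genes between 0.562 and 0.831. For 95.9% of Ensembl genes and 86.9% of NONCODE genes the 95% interval of the difference lay within 1.5-fold in either direction on the log2(FPKM + 1) scale. Within groups, the SD of a gene was larger in QDG than in SHR for 55.5% of genes, with medians of 0.134 and 0.125.

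The widest differences were in genes that did not pass. An absolute log2 fold change of at least 1 was found for 34 genes, 24 of them NONCODE, with 20 higher and 14 lower. One of the 34 was called (NONRATG015814.2), and the groups were apart in 2. The larger of the 2 within-group SDs had a median of 1.80 on the log2 scale in these genes, against medians of 0.125 and 0.134 in SHR and QDG over all genes tested. The widest decrease was in a NONCODE gene that stood at 60.7 to 69.1 FPKM in SHR replicates 2 to 6 and at 0.424 in SHR replicate 1. In QDG the same gene stood at 71.9 FPKM in replicate 1 and at 0.288 to 0.831 in the other 5 (log2 fold change -3.57, limma adjusted p = 0.308). The widest increase was in an Ensembl gene listed at 0 in SHR replicates 1, 3, 4 and 5 and in QDG replicates 2 and 5. It was at 269 and 344 FPKM in the other SHR libraries and at 287 to 706 in the other QDG libraries (limma adjusted p = 0.672). Both genes also took a high and a low level among the WKY libraries, at 0.397 to 104 FPKM for the first and 0 to 413 FPKM for the second. Both genes thus differed widely between libraries of the same group.

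At the level of whole libraries, no measure tested differed between the groups after adjustment. Pairs of libraries from different groups correlated at 0.973 to 0.982 (median 0.978) over the genes tested, and pairs within SHR at 0.976 to 0.982 and within QDG at 0.977 to 0.982. The 10 most abundant genes took 39.6% ± 1.49 of all FPKM in SHR and 39.8% ± 2.30 in QDG (SD, n = 6 each; two-sided exact permutation p = 0.877). Genes listed at 0 numbered 6546 ± 92.0 and 6517 ± 142 (SD, n = 6 each; exact permutation p = 0.727). Of 9 such measures tested, 1 had an exact permutation p under 0.05, and none an adjusted one (adjusted p from 0.409 to 0.877, where the smallest p this design allows is 0.00216).

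The gene ranked 3 by abundance spread the QDG libraries more widely than the SHR libraries, and the gene ranked 4 did not. The third most abundant took 6.18%, 5.77%, 9.41%, 7.15%, 9.29% and 8.75% of all FPKM in QDG replicates 1 to 6, against 5.77% to 7.54% in SHR. QDG replicates 3, 5 and 6 were above all SHR libraries and the other 3 were within the SHR range (7.76% ± 1.61 against 6.41% ± 0.640, SD, n = 6 each; exact permutation p = 0.0952, adjusted 0.429). The fourth took 4.40%, 4.29%, 4.38%, 3.80%, 3.24% and 3.38% in QDG replicates 1 to 6, and 3.72% to 5.09% in SHR. QDG replicates 5 and 6 were below all SHR libraries (3.91% ± 0.517 against 4.68% ± 0.550, SD, n = 6 each; exact permutation p = 0.0455, adjusted 0.409). The log2 ratio of these shares, the third gene over the one ranked 4, was 0.46 ± 0.314 in SHR and 0.97 ± 0.449 in QDG (SD, n = 6 each). With this ratio as a covariate, chosen after the values were seen, 6 genes passed, 4 of them among the 53. The ratio is higher on average in QDG, and its part in the 53 calls beyond this fit was not tested.

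**Figure D5:**
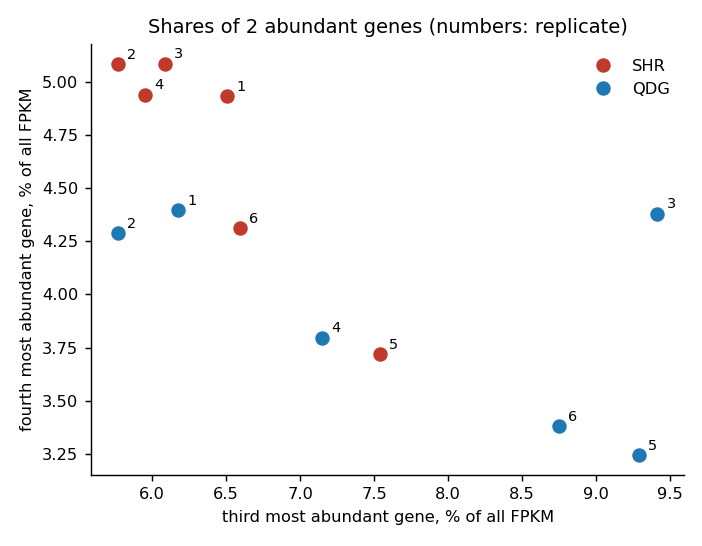
Share of all FPKM (%) taken by the third (x axis) and the fourth (y axis) most abundant gene in the 6 SHR and 6 QDG libraries, numbered by replicate. QDG replicates 3, 5 and 6 lie to the right of the SHR libraries, at 8.75% or more of the third gene. QDG replicates 1, 2 and 4 lie within the SHR range on the x axis.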

How the data were processed

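Heart RNA was depleted of rRNA and sequenced, per the labels' protocols. The deposited values are read as FPKM normalized by the authors: they are not whole and their sums differ between libraries, but the files do not name the unit. The submitters' processing notes name limma. Aligner, counter, build, annotation and strandedness were not given in the sources used here. Overlapping and near-identical genes may share reads. The tables end lines with LF in 7 files (SHR replicate 1 and QDG) and CR in 11. Values have up to 5 decimals in both. The line ends thus nearly follow the groups compared, as all QDG tables hold LF and, of SHR, only replicate 1 does. Whether this goes with any difference in values was not tested.

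R 4.3.3 with limma 3.58.1 and statmod 1.5.0 was used to fit log2(FPKM + 1) on the 12 libraries, with robust moderation and a trend in level. Two-sided p-values were adjusted over the 16577 genes (Benjamini-Hochberg). The fit was tested on simulated data in which genes varied independently and libraries had no effects of their own. That setting cannot check the calls against such effects. Library measures used exact permutation tests (scipy 1.17.1, Python 3.11.15). The members and lists were chosen with earlier results of these data known. The 56 gene lists, the share of mitochondrially encoded genes and the promoter motifs were not examined, as 0 identifiers matched the 47357 entries of the GRCr8 gene table. Of genes passing the test with a group mean of 1 FPKM or more, those with the largest fold changes are named, 2 per direction as they lack symbols.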

Additional observations from a re-analysis of the deposited data

Results flagged for a closer look

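By Dixon's criterion, 3 of 32 sets of 6 values had 1 value far from the remaining 5, a distance that about 1 set in 20 reaches by chance. For NONRATG015814.2 this was SHR replicate 1, with 8.38 FPKM where SHR replicates 2 to 6 had 17.6 to 20.8. The number of genes at 0 was 6245 for QDG replicate 4, while the remaining QDG libraries had 6520 to 6662. SHR replicate 4 had 9.01% of its FPKM in the second most abundant gene, and the remaining SHR libraries had 6.86% to 7.34%.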

How the results depend on the processing

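The count of 53 became 11 without a filter on low values, 3 with a replicate block, 0 for changes of more than 1.5-fold and 6 with the abundant-gene ratio as a covariate; the stricter test explains the third, and the cause of the others was not tested. Leaving out 1 library gave 14 to 47 genes, with fewer samples per test. The other 8 alternatives gave 38 to 70 genes: 54 in a fit over all 18 libraries (35 shared with the 53), 70 with median centring and with quantile normalization, 48 with each smaller pseudocount, 55 with library weights, 40 without trend or robust moderation, and 38 (19 higher, 19 lower) with a filter at 5 FPKM. Same-numbered libraries correlated at -0.07 to 0.12 in their deviations from the group means, and for 2 of 12 the best match had the same number. The titles do not say how the numbers were given, and such correlations cannot settle whether same-numbered libraries shared a step. No named fold change reversed, in fits that reuse libraries on which the genes were chosen. Depth is unknown, so counting error was not separated from other spread.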

Other observations

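Genes with a very low value in 1 library and a much higher one in another of the same group were found in both groups. Whether such genes hold 2 separate levels was not tested. A level under 0.1 FPKM in at least 1 library and of at least 5 FPKM in another of the same group was found for 88 genes in SHR (33 of them Ensembl) and for 88 in QDG (32 Ensembl). Among the 34 genes whose means differed most between treated and untreated hearts, 18 were of this kind in at least 1 of the groups. Genes whose groups would be apart but for 1 library were most frequent for QDG replicate 3 (187, 1.13% of genes tested). SHR replicate 5 (168, 1.01%) and SHR replicate 1 (110, 0.664%) followed, against 46 to 88 (0.277% to 0.531%) for the other libraries. These genes come in addition to the 194 (1.17%) that were apart with all 12 libraries.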
